A study of Homo sapiens with 6 samples.

Results

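The miR-106b-25 cluster is a group of 3 microRNA (miRNA) hairpins, miR-106b, miR-93 and miR-25, which are cut to give 6 mature miRNAs. The members described here were the rows of the count files with the names hsa-miR-106b-5p, hsa-miR-106b-3p, hsa-miR-93-5p, hsa-miR-93-3p, hsa-miR-25-3p and hsa-miR-25-5p. All 6 were found among the 2588 mature miRNAs listed. They were followed in A549, a line from a human lung adenocarcinoma, and BEAS-2B, a line of immortalised bronchial epithelial cells. Either line was untreated (control) or treated for 48 h with TGF-β1 at 1 or 5 ng/mL, a cytokine that moves epithelial cells toward a mesenchymal, matrix-producing state. All cells were labelled wild type, and per the labels the medium held 1% serum during treatment. The methods of the study name a higher serum level for culture and no separate level for the treatment. Both are established lines, and they stand in for lung epithelium only as such. The 6 groups held 1 library apiece, and hence no value below carries a replicate error and no difference was tested.

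Both strands of a miRNA hairpin can be loaded into the silencing complex, and the products are named 5p and 3p after the arm they come from. Bases 2 to 8 of a mature miRNA, the seed, pair with target transcripts, and miRNAs with the same seed share most predicted targets. The miR-106b-25 cluster is transcribed together with its host gene MCM7, which encodes a subunit of the replicative helicase. It is a paralogue of the miR-17-92 cluster and is known to repress CDKN1A, a cell cycle inhibitor, and BCL2L11, a promoter of apoptosis, both of which act downstream of TGF-β.

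In the GENCODE 29 annotation of GRCh38, the hairpins lay on the minus strand of chromosome 7, within MCM7 (chr7:100092728-100101940). MIR106B was at chr7:100093993-100094074, MIR93 at chr7:100093768-100093847 and MIR25 at chr7:100093560-100093643, together a stretch of 515 bases read in that order. All 3 hairpins fell in intron 13 of the 15-exon transcript MCM7-201. They overlapped no exon in any of the 8 MCM7 transcripts that span them, 4 of which are coding.

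The mature sequences show which members could act on the same targets. They are given 5′ to 3′ from RefSeq (GRCh38.p14) with the seed in capitals.
miR-106b-5p: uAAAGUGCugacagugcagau
miR-93-5p: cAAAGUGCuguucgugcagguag
miR-25-3p: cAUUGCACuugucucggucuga
miR-106b-3p: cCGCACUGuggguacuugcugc
miR-93-3p: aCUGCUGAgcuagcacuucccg
miR-25-5p: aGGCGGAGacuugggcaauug

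The cluster thus held members of separate seed families. miR-106b-5p and miR-93-5p shared the seed AAAGUGC, which 8 of the 2281 listed miRNAs with a RefSeq sequence carry. miR-25-3p carried AUUGCAC, which is found in 6. The seeds of the other 3 arms occurred in no other of these 2281 miRNAs. The sequences of miR-106b-5p and miR-93-5p differed by 7 single-base changes or gaps, so reads of one are readily told from reads of the other. The hairpins of miR-106b and miR-25, with both mature arms in capitals, show where the arms compared below lie in the precursor.
MIR106B: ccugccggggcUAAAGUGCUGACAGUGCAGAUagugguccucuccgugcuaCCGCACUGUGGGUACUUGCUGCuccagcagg
MIR25: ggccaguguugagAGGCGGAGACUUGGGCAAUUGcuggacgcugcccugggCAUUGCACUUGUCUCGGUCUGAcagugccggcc

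Total counts ranged from 633318 to 900424 per library. Counts were scaled by the trimmed mean of M-values (TMM) to normalised read counts, and the normalised data (ND) value was log2 of the normalised count plus 1. The BEAS-2B control stood apart from the rest, with a TMM factor of 1.32 against 0.829 to 1.02 in the other 5 libraries, and with 35.4% of its reads from miR-21-5p against 47.6% to 57.2%. Every BEAS-2B comparison with the control rests on that library. Scaling by total count moved the median log2 ratio of all miRNAs by -0.43 (1 ng/mL) and -0.41 (5 ng/mL) in BEAS-2B cells, by -0.14 and 0.16 in A549 cells, and by -0.54 between the untreated lines. The 6 epithelial marker miRNAs of the miR-200 family and miR-205 summed to between 219 and 472 reads, and miR-205-5p had 0 to 2 reads per library. The blood list summed to at most 9 reads and the muscle list to at most 3, whereas miR-126-3p, known from endothelium, had 1003 to 1280 reads in A549 and 197 to 393 in BEAS-2B libraries.

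The cluster was of moderate abundance in all 6 libraries. Its 6 members summed to 4294, 4125 and 3615 reads in A549 cells at 0, 1 and 5 ng/mL, which is 0.544%, 0.458% and 0.571% of the library. In BEAS-2B cells the sum was 6614, 4458 and 5431 reads, or 0.899%, 0.678% and 0.708%. On the normalised scale the sum was 4468, 4142 and 4207 in A549 cells and 5088, 5161 and 5324 in BEAS-2B cells. The A549 values all lay below the BEAS-2B values.

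The members, mature miRNAs of nearly equal length, differed widely in read count. miR-25-3p and miR-93-5p were the most abundant, and miR-106b-3p came next in every library. miR-106b-5p followed, at ranks 85 to 159 among all miRNAs of a library. The other strands were rare. miR-93-3p had 4 to 24 reads and miR-25-5p 19 to 42, and neither reached an ND of 8, the value that the study required. On the scale used here, that value corresponds to a normalised count of 255. The ratios of these 2 arms are therefore given with their counting intervals only.

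miR-106b-5p, which shares its seed with miR-17-5p, differed most from the control among the 4 members that met the ND criterion in A549 cells. Its reads numbered 352, 242 and 129 in A549 cells at 0, 1 and 5 ng/mL, or 366, 243 and 150 normalised. In BEAS-2B cells it had 451, 336 and 459 reads, or 347, 389 and 450 normalised. The untreated lines were thus close together, and the treated A549 libraries lay below every other library.

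miR-93-5p had the same seed and a smaller difference. It had 1613, 1261 and 1043 reads in A549 cells at 0, 1 and 5 ng/mL, which is 1678, 1266 and 1214 normalised. The BEAS-2B libraries held 1815, 1210 and 1744 reads, or 1396, 1401 and 1710 normalised. The highest levels were those of the A549 control and the BEAS-2B library at 5 ng/mL, and the lowest were those of the treated A549 libraries.

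miR-25-3p, of the other seed family, was ordered the other way in A549 cells. There it had 1474, 1799 and 1756 reads, or 1534, 1806 and 2044 normalised. BEAS-2B cells had 2770, 1876 and 2051 reads, or 2131, 2172 and 2011 normalised. Only the A549 library at 5 ng/mL reached the BEAS-2B range.

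miR-106b-3p was the more abundant strand of its hairpin. Its reads numbered 823, 786 and 642 in A549 cells, or 856, 789 and 747 normalised. In BEAS-2B cells they numbered 1533, 999 and 1111, or 1179, 1157 and 1089 normalised. The A549 libraries were below the BEAS-2B libraries at each dose, and the values within a line lay close together.

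The rare arms were measured coarsely. miR-93-3p had 13, 8 and 14 reads in A549 cells and 18, 4 and 24 in BEAS-2B cells. miR-25-5p had 19, 29 and 31 reads in A549 cells and 27, 33 and 42 in BEAS-2B cells. In each line the control had the fewest reads of miR-25-5p.

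**Figure D1:**
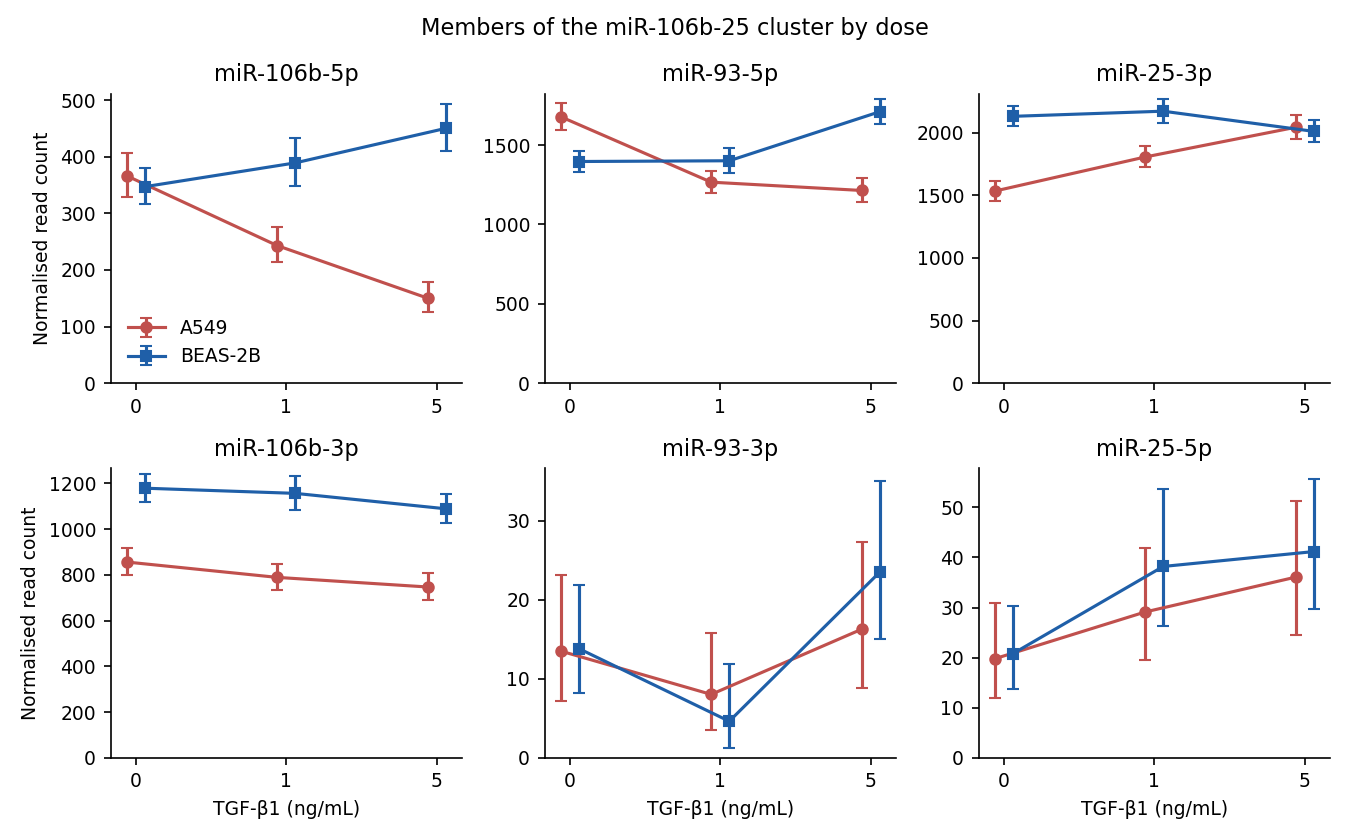
Normalised read count (vertical axis, from 0) of the 6 members at 0, 1 and 5 ng/mL TGF-β1 (horizontal axis, evenly spaced doses) in A549 (red circles) and BEAS-2B cells (blue squares), 1 library per point, with exact 95% counting intervals as bars. miR-106b-5p went from 366 to 150 in A549 cells and from 347 to 450 in BEAS-2B cells, while miR-25-3p in A549 cells went from 1534 to 2044.

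The first comparison asked which members differed between TGF-β1-treated and untreated cells. A member passed when it reached an ND of 8 in the greater library and a fold change (FC) of 1.4 in either direction. The values 8 and 1.4 are those of the study. Which library must reach the ND is not stated there, so the greater library and TMM scaling were choices made here. The intervals are exact 95% Clopper-Pearson intervals that cover counting error only, because each group held 1 library. No molecular identifiers are known from the sources used here, so copies made in amplification could leave even these intervals too narrow.

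In A549 cells at 5 ng/mL, miR-106b-5p was the 1 member of 4 that passed. Its log2 ratio was -1.28 (95% interval -1.59 to -0.99), an FC of 2.43 toward lower counts. It met the ND criterion through the control library alone, with an ND of 8.52 there and 7.24 at 5 ng/mL. No member passed when both libraries had to meet the criterion. Among the 141 miRNAs with a sufficient ND in this comparison, 53.2% passed in either direction and 26.2% passed as lower, so a share of 1 in 4 members is near the background. By size, 2.84% of those miRNAs had a lower log2 ratio than miR-106b-5p. miR-93-5p, at -0.47 (-0.58 to -0.35) and an FC of 1.38, was just short of the fold criterion, which it met in 5 of 6 other scalings. miR-25-3p was higher by 0.41 (0.31 to 0.51) on the log2 scale. miR-106b-3p was at -0.20 (-0.35 to -0.05).

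At 1 ng/mL in A549 cells the members stood in the same order, measured against the same control library. Here miR-106b-5p again was the 1 member that passed, with a log2 ratio of -0.59 (-0.83 to -0.35), beside a background of 48.9% in either direction and 21.9% lower among 137 miRNAs. Its ND was 7.93 in the treated library, so it again met the criterion through the control alone. With the criterion on both libraries no member passed. miR-93-5p was at -0.41 (-0.51 to -0.30), miR-106b-3p at -0.12 (-0.26 to 0.02) and miR-25-3p at 0.24 (0.14 to 0.34). Under 6 other scalings miR-106b-5p was at least 1.4-fold lower at both doses, with log2 ratios of -0.73 to -0.54 (1 ng/mL) and -1.44 to -1.12 (5 ng/mL). miR-93-5p was lower and at 5 ng/mL miR-25-3p was higher in all 6, while at 1 ng/mL miR-25-3p was at -0.10 with quantile normalisation.

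No member passed in BEAS-2B cells, where the background was 29.2% of 120 miRNAs at 1 ng/mL and 36% of 125 at 5 ng/mL. At 5 ng/mL, miR-106b-5p had a log2 ratio of 0.37 (0.18 to 0.57) and miR-93-5p one of 0.29 (0.20 to 0.39). miR-106b-3p was at -0.11 (-0.23 to -0.002) and miR-25-3p at -0.08 (-0.17 to -0.0008). At 1 ng/mL, the ratios of these 4 members lay between -0.03 and 0.16, and all their intervals included 0. The signs depended on the scaling in this line. At 5 ng/mL, miR-106b-5p was higher in 5 of 6 other scalings and at -0.04 with total-count scaling, and miR-93-5p was higher in 3 of 6.

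The summed cluster lay close to the control in both lines. The log2 ratio of the cluster sum was -0.11 (-0.17 to -0.05) and -0.09 (-0.15 to -0.02) in A549 cells treated with 1 and 5 ng/mL, a difference of -7.30% and -5.84%. In BEAS-2B cells it was 0.02 (-0.03 to 0.08) and 0.07 (0.01 to 0.12), or 1.45% and 4.65%. The sign of the sum changed with total-count scaling in A549 cells at 5 ng/mL, to 0.07, and under 4 of 6 other scalings at each dose in BEAS-2B cells.

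The rare arms had wide intervals. For miR-25-5p the log2 ratio was 0.54 (-0.33 to 1.47) and 0.84 (-0.002 to 1.77) in A549 cells at 1 and 5 ng/mL, and 0.85 (0.10 to 1.67) and 0.95 (0.26 to 1.74) in BEAS-2B cells. All 4 values were above 0 under each of the 6 other scalings. The 4 intervals of miR-93-3p against the control all included 0, so a difference of this arm was not detectable at this depth.

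**Figure D2:**
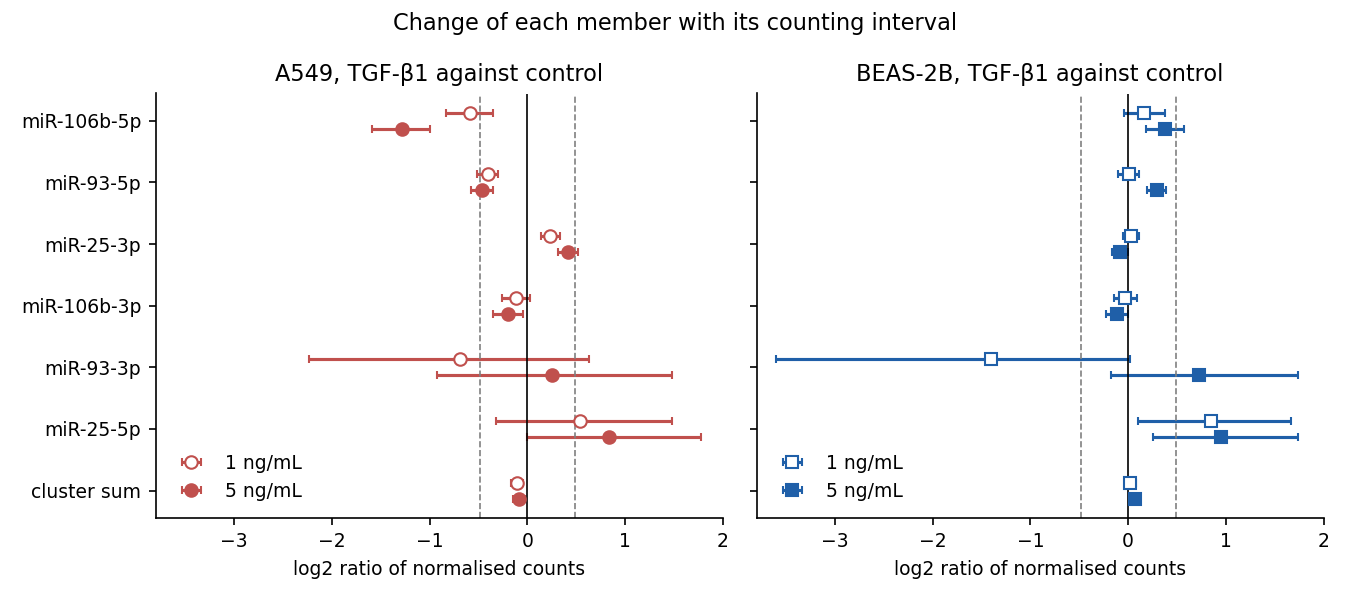
Log2 ratio of normalised counts against the control of the same line (horizontal axis) for the 6 members and the cluster sum in A549 (left) and BEAS-2B cells (right), at 1 ng/mL (open symbols) and 5 ng/mL (filled symbols), with exact 95% counting intervals. Dashed lines mark an FC of 1.4. miR-106b-5p in A549 cells is the 1 abundant member beyond the line, at -0.59 and -1.28, and the cluster sum stays between -0.11 and 0.07.

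The second comparison set the higher dose against the lower. No member passed in A549 cells, where 16.9% of 130 miRNAs did between 5 and 1 ng/mL, or in BEAS-2B cells, where 6.61% of 121 did. miR-106b-5p in A549 cells had a log2 ratio of -0.69 (-1.01 to -0.38) between the doses, which was beyond the fold criterion, but its ND was under 8 in both treated libraries. With an ND of 7 required it was the 1 member that passed, but the share of all miRNAs that pass at that ND is not given here. miR-25-3p was at 0.18 (0.08 to 0.27), miR-93-5p at -0.06 and miR-106b-3p at -0.08. In BEAS-2B cells, miR-93-5p was at 0.29 (0.18 to 0.39) and miR-106b-5p at 0.21 (0.004 to 0.42). miR-93-3p was at 2.12 (0.80 to 4.33), from 24 reads at 5 ng/mL against 4 at 1 ng/mL.

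The third comparison was between the lines at equal dose. No member passed between the untreated lines, although 68.9% of 135 miRNAs did. In untreated A549 relative to BEAS-2B cells, miR-25-3p was at -0.47 (-0.57 to -0.38) and miR-106b-3p at -0.46 (-0.59 to -0.34), both just inside the fold criterion, while miR-93-5p was at 0.27 (0.17 to 0.36) and miR-106b-5p at 0.08 (-0.13 to 0.28). The first 2 passed the fold criterion in 5 and 6 of 6 other scalings, and the sign of the last 2 turned in 3 and 5 of 6. At 1 ng/mL, 2 members were lower in A549 cells, miR-106b-5p at -0.68 (-0.92 to -0.44) and miR-106b-3p at -0.55 (-0.69 to -0.42), beside a background of 64.3% in either direction and 25.9% lower. With 5 ng/mL, 3 members were lower, beside 67.8% and 29.5%. They were miR-106b-5p at -1.58 (-1.88 to -1.30), miR-106b-3p at -0.54 (-0.69 to -0.40) and miR-93-5p at -0.49 (-0.61 to -0.38). miR-93-5p passed only just, at an FC of 1.408. In the treated cells miR-106b-5p met the ND criterion through the BEAS-2B library alone. miR-25-3p was at 0.02 (-0.07 to 0.12) at that dose.

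Ratios of members within a library do not depend on scaling, and they showed how the make-up of the cluster differed. Reads of the miR-25 hairpin, both arms together, made up 34.8% of the cluster in the A549 control (exact 95% interval 33.3 to 36.2), 44.3% at 1 ng/mL (42.8 to 45.8) and 49.4% at 5 ng/mL (47.8 to 51.1). The miR-93 hairpin made up 37.9%, 30.8% and 29.2%, and the miR-106b hairpin 27.4%, 24.9% and 21.3%. In the untreated A549 cells miR-93 was thus the largest part, and in the treated cells miR-25 was. In BEAS-2B cells, the miR-25 hairpin was the largest part throughout, at 42.3%, 42.8% and 38.5%, while miR-93 held 27.7%, 27.2% and 32.6% and miR-106b 30.0%, 29.9% and 28.9%.

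The ratio of miR-93-5p to miR-25-3p reads, the main products of neighbouring hairpins, was 1.09 in untreated A549 cells, then 0.701 and 0.594 with rising dose. The log2 change was -0.64 (-0.79 to -0.50) and -0.88 (-1.03 to -0.73). In BEAS-2B cells the ratio was 0.655, 0.645 and 0.850, with log2 changes of -0.02 (-0.16 to 0.11) and 0.38 (0.25 to 0.50). The order of the lines was reversed by dose, with A549 above BEAS-2B in the untreated cells and below it at 5 ng/mL. Among the abundant members, the ratio of miR-106b-5p to miR-25-3p had the widest range, from 0.239 in the A549 control to 0.0735 at 5 ng/mL, a log2 change of -1.70 (-2.02 to -1.39). It was 0.163 in the BEAS-2B control and 0.224 at 5 ng/mL, a change of 0.46 (0.25 to 0.67).

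The arms of the miR-106b hairpin come from the same precursor molecule, so their ratio does not depend directly on the amount of precursor. The 5p arm held 30.0% of miR-106b reads in the A549 control (exact 95% interval 27.3 to 32.7), 23.5% at 1 ng/mL (21.0 to 26.3) and 16.7% at 5 ng/mL (14.2 to 19.6). In BEAS-2B cells its share was 22.7% (20.9 to 24.6), 25.2% (22.9 to 27.6) and 29.2% (27.0 to 31.6). The log2 change of the 5p to 3p ratio was -0.47 (-0.76 to -0.19) and -1.09 (-1.43 to -0.76) in A549 cells at 1 and 5 ng/mL, and 0.19 (-0.05 to 0.43) and 0.49 (0.27 to 0.71) in BEAS-2B cells. The lines therefore went in opposite directions, and their counting intervals at 5 ng/mL did not overlap. Opposite signs do not set miR-106b apart, since most hairpins with at least 100 reads of each arm had them at this dose. For miR-424 the A549 change was -1.39 and the BEAS-2B change 0.81. The same pair was -1.21 and 0.59 for miR-30a, and -1.09 and 0.70 for miR-30e. Of the hairpins measured in both lines, only miR-22, miR-27a, miR-361 and miR-455 kept one sign. The arms of the other hairpins were lopsided in all 6 libraries, with 98.6% to 99.7% of miR-93 reads from the 5p arm and 0.965% to 2.01% of miR-25 reads from the 5p arm.

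**Figure D3:**
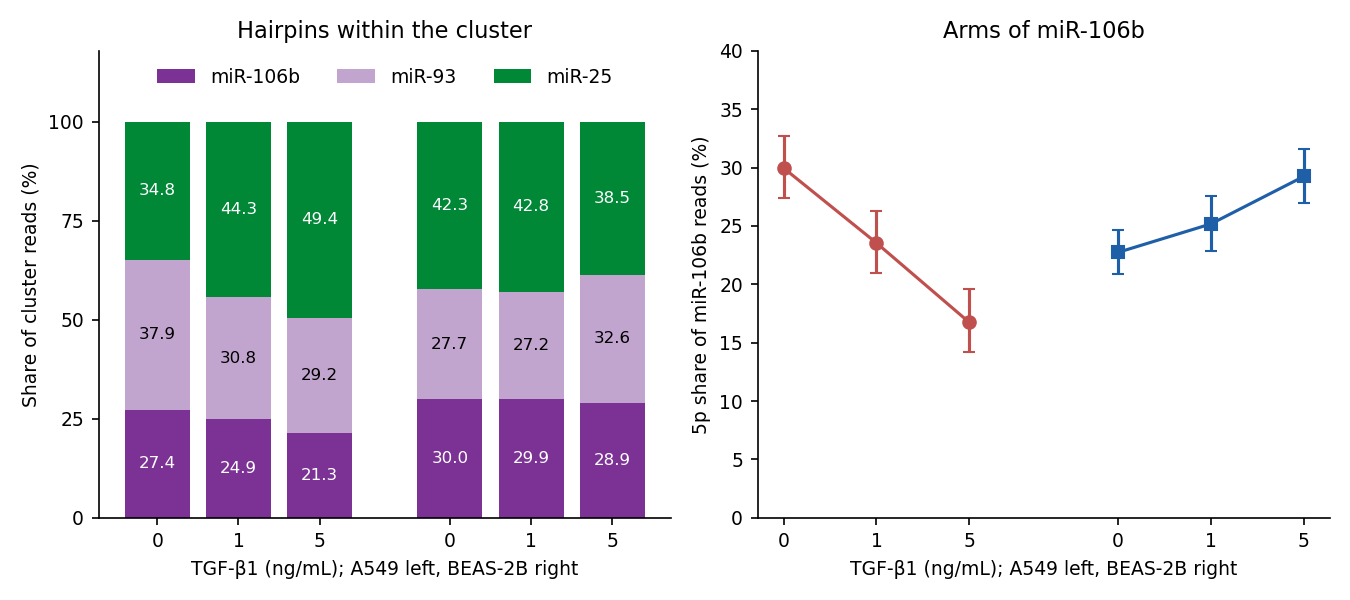
Left, share of cluster reads (%) from the miR-106b, miR-93 and miR-25 hairpins, both arms summed, in each library. Right, 5p share of miR-106b reads (%) with exact 95% intervals. Horizontal axes give the TGF-β1 dose, A549 on the left of each panel and BEAS-2B on the right. In A549 cells the miR-25 share went from 34.8% to 49.4% and the 5p share of miR-106b from 30.0% to 16.7%, while the 5p share went from 22.7% to 29.2% in BEAS-2B cells.

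Changes of arm ratio were common in these libraries. Among hairpins with at least 100 reads of each arm in both libraries, the 5p to 3p ratio differed from the control by at least 1.4-fold in 70% of 20 hairpins in A549 cells at 5 ng/mL (35% with less 5p) and in 23.1% of 26 at the lower dose. In BEAS-2B cells it did so in 34.6% of 26 hairpins at 5 ng/mL (23.1% with more 5p) and in 13% of 23 at 1 ng/mL. miR-106b passed that fold at 5 ng/mL in both lines, in BEAS-2B cells only just at 1.404, and at 1 ng/mL in neither. In A549 cells at 5 ng/mL, 3 of the 20 hairpins had a larger loss of 5p. In BEAS-2B cells at 5 ng/mL, 5 of 26 had a larger gain.

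**Figure D4:**
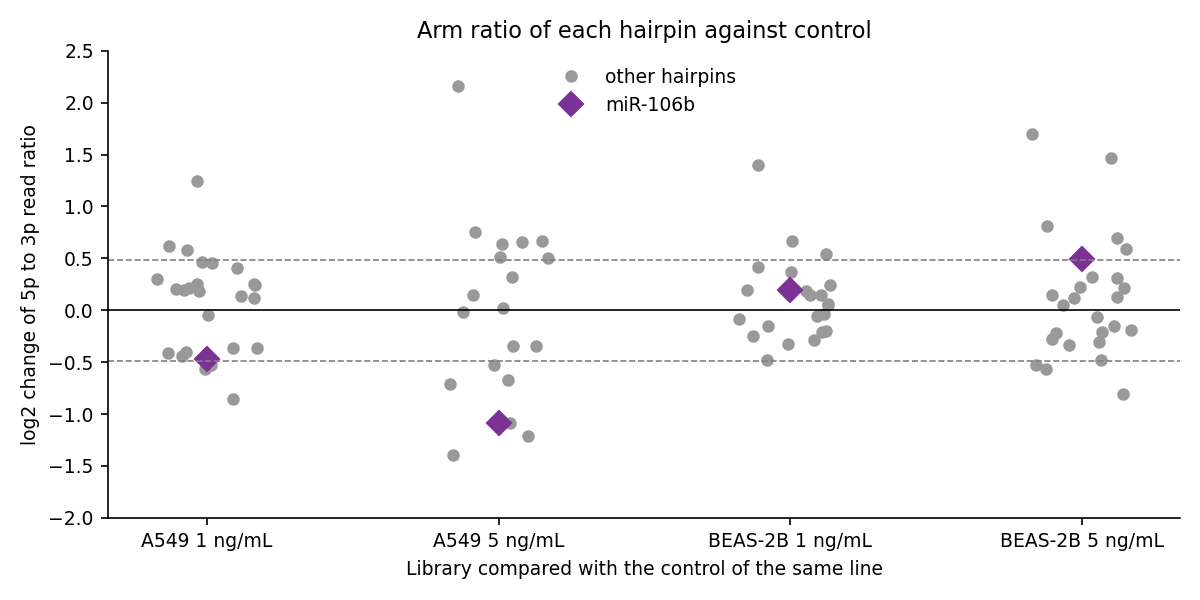
Log2 change of the 5p to 3p read ratio against the control (vertical axis) for every hairpin with at least 100 reads of each arm in both libraries (grey points, spread sideways for visibility), with miR-106b as a purple diamond, in the 4 treated libraries (horizontal axis). Dashed lines mark 1.4-fold. miR-106b lies at -0.47 and -1.09 in A549 cells and at 0.19 and 0.49 in BEAS-2B cells, within the spread of the other hairpins.

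Base composition was compared with these differences, since ligation and amplification of small RNAs can depend on it. miR-106b-5p had the lowest GC content of the members, 42.9%, against 52.2% in miR-93-5p, 50% in miR-25-3p and 63.6% in miR-106b-3p. Across 131 miRNAs that met the ND criterion and had a sequence, GC content and the log2 ratio in A549 cells at 5 ng/mL had a Spearman's rho of 0.24, and at 1 ng/mL rho was 0.09 across 127. In BEAS-2B cells rho was -0.06 across 111 at 1 ng/mL and -0.08 across 116 at 5 ng/mL. Between the A549 libraries at 5 and 1 ng/mL, where miR-106b-5p was at -0.69, rho was 0.33 across 121. These are correlations across miRNAs that share the same libraries, and the part of base composition in the ratios of miR-106b-5p was not tested.

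The seed families place the members beside their paralogues. The relatives with the most reads are shown with the seed in capitals, for comparison with the members above.
miR-17-5p: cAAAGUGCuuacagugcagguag
miR-20a-5p: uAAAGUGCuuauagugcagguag
miR-92a-3p: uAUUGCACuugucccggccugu
miR-92b-3p: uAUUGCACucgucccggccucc

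miR-93-5p differed from miR-17-5p by 3 single-base changes or gaps, miR-106b-5p from miR-17-5p by 5, and miR-25-3p from miR-92a-3p by 4. How reads that match several miRNAs were counted is not given in the sources used here, and within the family miR-106a-5p, 1 change from miR-17-5p, is the least certain.

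miR-106b-5p and miR-93-5p gave about as many reads as all their seed relatives together. Their share of the AAAGUGC family was 55.4%, 53.4% and 56.2% in A549 cells at 0, 1 and 5 ng/mL. The BEAS-2B shares were 56.9% (55.3 to 58.4), 49.7% (47.9 to 51.5) and 49.2% (47.7 to 50.6). Most of the rest came from miR-17-5p and miR-20a-5p of the miR-17-92 cluster. miR-17-5p had 629, 550 and 345 reads in A549 cells and 711, 580 and 883 in BEAS-2B cells. miR-20a-5p had 915, 732 and 541 reads and 978, 951 and 1337 reads, respectively. The whole family had a log2 ratio of -0.38 (-0.46 to -0.31) and -0.61 (-0.68 to -0.53) in A549 cells at 1 and 5 ng/mL, and of 0.23 (0.17 to 0.30) and 0.52 (0.46 to 0.58) in BEAS-2B cells. These signs held in 6 of 6 other scalings except in BEAS-2B cells at 1 ng/mL, where they held in 4.

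miR-25-3p shared its family mainly with miR-92a-3p. It gave 31.0% of the AUUGCAC reads in the A549 control (29.7 to 32.3), 35.9% at 1 ng/mL (34.5 to 37.2) and 34.8% at 5 ng/mL (33.5 to 36.1). In BEAS-2B cells it gave 42.7% (41.4 to 43.9), 40.9% (39.5 to 42.4) and 37.8% (36.5 to 39.1). miR-92a-3p gave 53.6%, 53.2% and 55.8% in A549 cells and 34.7%, 45.1% and 47.0% in BEAS-2B cells, so that miR-25-3p was the leading member of the family in the BEAS-2B control alone. The family sum had a log2 ratio of 0.02 (-0.03 to 0.08) and 0.25 (0.19 to 0.30) in A549 cells, and of 0.09 at both doses in BEAS-2B cells. Its sign held in 6 of 6 other scalings in A549 cells at 5 ng/mL, but in only 1 of 6 at 1 ng/mL and in 3 and 2 of 6 in BEAS-2B cells.

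The balance between the families differed between the lines. Reads with the AAAGUGC seed numbered 0.745 per AUUGCAC read in untreated A549 cells, then 0.562 and 0.413 with rising dose. In BEAS-2B cells the ratio was 0.614, 0.679 and 0.825. The log2 change at 5 ng/mL was -0.85 (-0.95 to -0.75) in A549 cells and 0.43 (0.35 to 0.51) in BEAS-2B cells.

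**Figure D5:**
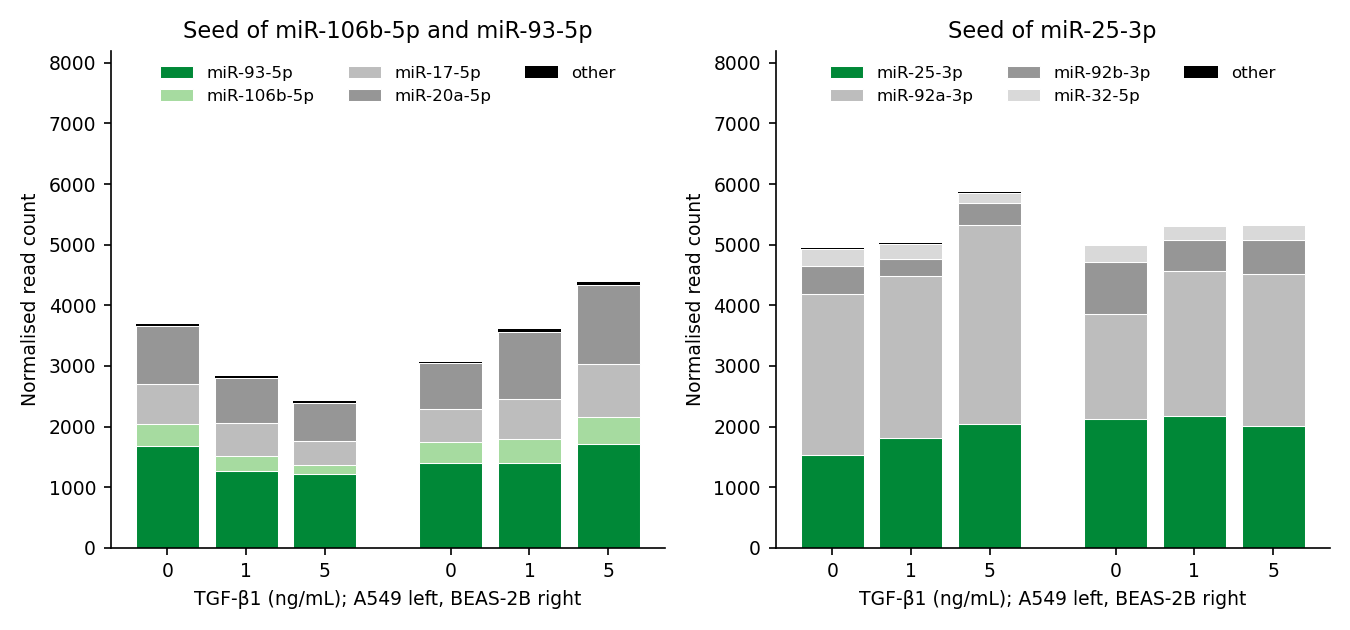
Normalised read count (vertical axis, from 0) of the miRNAs that share the seed of miR-106b-5p and miR-93-5p (left) or of miR-25-3p (right), stacked by miRNA, with cluster members in green and relatives in grey or black. Horizontal axes give the TGF-β1 dose, A549 on the left of each panel and BEAS-2B on the right, 1 library per bar. The left family goes from 3692 to 2426 in A549 cells and from 3065 to 4393 in BEAS-2B cells.

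The paralogous clusters were described in the same way as the cluster itself. In miR-17-92, 3 of 12 listed miRNAs met the ND criterion, namely miR-17-5p, miR-20a-5p and miR-92a-3p. In A549 cells at 5 ng/mL, 2 of the 3 were lower, as were 26.2% of all 141, and the median log2 ratio was -0.60, beside a median of -0.33 for the 4 abundant members of miR-106b-25 and of -0.03 for all miRNAs. In BEAS-2B cells at 5 ng/mL all 3 were higher, as were 20% of all 125, with a median of 0.66, beside 0.10 for miR-106b-25 and -0.08 for all miRNAs. At 1 ng/mL the medians of miR-17-92 and miR-106b-25 were -0.24 and -0.26 in A549 cells and 0.46 and 0.02 in BEAS-2B cells, where 1 of the 3 was higher beside 15.8% of all. miR-17-5p was at -0.24 and -0.70 in A549 cells and at 0.30 and 0.66 in BEAS-2B cells. miR-92a-3p was at 0.01 and 0.30 in A549 cells and at 0.46 and 0.53 in BEAS-2B cells. The signs of miR-17-5p, miR-20a-5p and miR-92a-3p at 5 ng/mL held in 6 of 6 other scalings in both lines. None of the 10 miRNAs listed under the miR-106a-363 cluster met the ND criterion. However, miR-92a-3p and miR-19b-3p come from both clusters and were listed under miR-17-92 only, so their reads were not divided between the clusters.

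The miRNAs outside the cluster whose pattern was most like its sum were ranked by the root mean square distance between centred ND values over the 6 libraries, among 153 miRNAs. The nearest was miR-28-3p, at 0.0879, followed by miR-103a-3p at 0.143, let-7g-5p at 0.144, miR-503-5p at 0.147 and miR-103b at 0.157, against a median of 0.515. miR-103a-3p and miR-103b come from opposite strands of the same loci, and without a stated strand rule their reads cannot be told apart. Within the cluster, the distance to the sum was 0.135 for miR-106b-3p, 0.158 for miR-25-3p, 0.160 for miR-93-5p and 0.421 for miR-106b-5p. These members are themselves part of the sum, so their distances are not comparable with those of miRNAs outside the cluster. miR-28-3p had 594, 651 and 552 normalised counts in A549 cells and 725, 703 and 718 in BEAS-2B cells.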

How the data were processed

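Small RNA libraries were prepared from total RNA of A549 and BEAS-2B cells, 1 for each line and dose. For every mature miRNA the authors deposited its raw read count, made with Bowtie2 and bedtools per the submitters' processing notes. The genome build, miRNA annotation and strand handling are not given in the sources used here. All count columns were used.

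TMM factors over all 6 libraries came from edgeR 4.0.16 in R 4.3.3, and counts were scaled to the mean effective library size of 749498. Ratios were differences of log2(normalised count + 1), with a pseudocount of 1. Intervals came from scipy 1.17.1 in Python 3.11.15 (numpy 2.4.6, pandas 2.3.3, matplotlib 3.10.9). Ratios between libraries were given the exact conditional binomial interval, scaled by effective library sizes, and changes in a within-library ratio the exact conditional interval of the odds ratio. The limit that a count of 0 allows, 3 counts, was 3.33 to 4.74 CPM. No p-value was computed. The intervals between libraries were tried on counts simulated with the counting error that they assume and no other variation between libraries. That trial therefore says nothing of replicate error.

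The 6 members were named throughout, relatives where their family or cluster was described, and the 5 miRNAs nearest to the summed cluster. Members, lists and comparisons were chosen with earlier results of these data known. Seed-family sums and GC content were added after the data were seen. Alternatives used DESeq2 1.42.0 size factors, limma 3.58.1 quantile normalisation and other scalings and thresholds.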

Additional observations from a re-analysis of the deposited data

Results flagged for a closer look

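Each result here had log2 differences from the control of one sign at both doses in A549 cells and of the other sign at both doses in BEAS-2B cells. How many miRNAs or ratios outside the cluster meet this rule is not given here, so it does not set these results apart. With 1 library per group the difference between the lines was not tested, and the doses of a line share a control. Values are the log2 change at 5 ng/mL in A549 minus that in BEAS-2B cells.

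For single miRNAs, the value was -1.66 for miR-106b-5p and -0.76 for miR-93-5p, and for the cluster sum it was -0.15. The signs of these 3 in BEAS-2B cells depended on the scaling. Within libraries, where scaling has no part, it was -1.58 for the ratio of miR-106b-5p to miR-106b-3p, -2.16 for miR-106b-5p to miR-25-3p, -0.90 for miR-106b-5p to miR-93-5p and 0.68 for miR-106b-3p to miR-93-5p. For each of these single miRNAs, the cluster sum and the ratios, the counting interval of the BEAS-2B change at 1 ng/mL included 0. For miR-106b-5p to miR-93-5p, the intervals also included 0 in BEAS-2B cells at 5 ng/mL, 0.08 (-0.13 to 0.30), and in A549 cells at 1 ng/mL, -0.19 (-0.45 to 0.08). The sum of the AAAGUGC seed family gave -1.12, and the ratio of the AAAGUGC to the AUUGCAC family gave -1.28.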

How the results depend on the processing

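With 1 library per group no replicate could be left out, and all intervals cover counting error only. A fit of dose with the cell line as a block, which would take the lines as replicates of a dose, was not run. Depth limits miR-93-3p and miR-25-5p, which had at most 42 reads. Of the single-member log2 ratios under the alternatives, 326 stayed within the counting interval and the others moved beyond it. The order of the 5 miRNAs most like the cluster was unchanged with DESeq2 size factors. The cause of the changes below was not tested.

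For A549 at 1 ng/mL against control, 1 member passed, 2 with DESeq2, total-count or quantile scaling, and 0 with an ND of 9, the ND criterion on both libraries, an FC of 2 or an interval beyond 1.4-fold. At 5 ng/mL, 1 passed, 2 with any of the 6 other scalings, and 0 with an ND of 9 or the ND criterion on both libraries. In BEAS-2B cells, 0 passed at each dose, but 3 without scaling at 1 ng/mL and 2 with total-count scaling at 5 ng/mL. The median log2 ratio of all miRNAs in these settings was -0.63 and -0.49, itself beyond the 1.4-fold line. The share of all miRNAs that passed under each alternative is not given here, so no count in this paragraph has its background beside it. Between 5 and 1 ng/mL, 1 passed in A549 with an ND of 7 and 1 in BEAS-2B without scaling, against 0. Between the untreated lines, 0 passed, 1 with quantile normalisation and 2 with the other 5 scalings. At 1 ng/mL, 2 differed between the lines, and 3 with total-count scaling, TMM within each line or quantile normalisation. The count was 1 with an ND of 9 or the ND criterion on both libraries. It was 0 without scaling, with an FC of 2 or with an interval beyond 1.4-fold. At 5 ng/mL, 3 differed, and 2 with total-count scaling, an ND of 9 or the ND criterion on both libraries. With an FC of 2 or an interval beyond 1.4-fold, 1 differed at that dose.

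The log2 ratio of the cluster sum moved as follows. In A549 at 1 ng/mL it was -0.20 with DESeq2, -0.25 with total-count scaling, -0.17 with TMM within each line and -0.36 with quantile normalisation. In A549 at 5 ng/mL it was -0.18, 0.070, -0.16 and -0.37 in the same order, -0.25 unscaled and -0.21 with TMM on miRNAs with a mean count of at least 10. In BEAS-2B at 1 ng/mL it was -0.052 with DESeq2, -0.41 with total counts, -0.57 unscaled, -0.16 with filtered TMM and 0.11 with quantile normalisation. In BEAS-2B at 5 ng/mL it was -0.053, -0.35, -0.28 and -0.23 with the first 4 of these. Between the doses it was 0.32 with total counts, -0.19 unscaled and -0.045 with filtered TMM in A549, and 0.28 unscaled and -0.068 with filtered TMM in BEAS-2B. Between the untreated lines it was -0.73 with total counts, -0.39 with TMM within each line, -0.62 unscaled and -0.51 with filtered TMM. Between the lines at 1 ng/mL it was -0.39 with DESeq2, -0.57 with total counts, -0.59 with TMM within each line, -0.11 unscaled, -0.51 with filtered TMM and -0.60 with quantile normalisation. At 5 ng/mL it was -0.62 with TMM within each line, -0.59 unscaled, -0.49 with filtered TMM and -0.62 with quantile normalisation.

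With the seed family limited to the 3 paralogous clusters, miR-25-3p gave 36.5%, 40.1% and 38.3% of its reads in A549 cells at 0, 1 and 5 ng/mL and 55.1%, 47.5% and 44.5% in BEAS-2B cells. With at least 10 reads of each arm, chosen after the data were seen, an arm ratio differed at 1 and 5 ng/mL in 29.6% and 59.2% of hairpins in A549 and in 27.9% and 41.4% in BEAS-2B cells.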
